A study of Arabidopsis thaliana with 38 samples.

Results

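The genes described here are the 5 Arabidopsis thaliana genes for demethylases of lysine 27 of histone H3, namely REF6 (AT3G48430), ELF6 (AT5G04240), JMJ13 (AT5G46910), JMJ30 (AT3G20810) and JMJ32 (AT3G45880). They were chosen by gene identifier from the 27416 genes counted in each of 2 deposited tables, and all 5 were present. REF6, JMJ30 and JMJ32 lie on chromosome 3, and ELF6 and JMJ13 on chromosome 5. Poly(A)-selected RNA was sequenced from 4 genotypes with 2 libraries each, a pair labelled H3.1 and H3.1S28A and a pair labelled H3.3 and H3.3S28A. H3.1 is the form of histone H3 laid down at DNA replication, H3.3 is the form laid down independently of it, and S28A stands for serine 28 exchanged for alanine. The labels give all samples as seedlings 2 weeks old, grown in soil, while the extraction text names closed buds. The labels do not say which H3 genes each line lacks or carries, what drives any introduced H3 gene, how many plants a library holds, or at which hour of the day and in which day length the plants were taken. No series label says that the libraries of a genotype came from separate batches of plants, so p-values measure the spread between these samples only.

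Trimethylation of H3 lysine 27, written by Polycomb repressive complex 2 (PRC2), keeps genes silent, and serine 28 is the residue next to it. Demethylases with a JmjC domain, which use iron and 2-oxoglutarate, take the methyl groups off again. REF6 and ELF6 also carry zinc fingers, and REF6 uses its own to find its DNA targets. Loss of REF6 delays flowering, while loss of ELF6 or JMJ13 hastens it. JMJ30 is a rhythmic gene of the circadian clock that peaks towards dusk, and JMJ30 and JMJ32 act together at the floral repressor gene FLC in warm conditions. No sequences are shown, because no sequence table was used here.

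Total counts were 12865999 to 24449528 per library. Levels are CPM (counts scaled to a common library size) with all 8 libraries scaled together by TMM. Fold changes were tested by the quasi-likelihood test of edgeR, p was adjusted over all genes, and a gene was called at adjusted p under 0.05. Leaf markers summed to 44205 to 51017 CPM in every library, and 7 anther and pollen markers to at most 1.30 CPM. The 3 root markers summed to 102 to 114 CPM in H3.1, 59.0 to 105 CPM in H3.1S28A, 170 to 229 CPM in H3.3 and 96.1 to 102 CPM in H3.3S28A. Both that were tested, PHO1 and PYK10, were called lower in H3.3S28A, at −0.98 and −0.96, as were 29.7% of all genes. With the trend on gene span described below removed they were at 0.01 (not called) and −0.64. The 7 floral organ markers summed to 2.65 to 2.68 CPM in H3.1, 0.659 to 0.830 CPM in H3.3, and 178 to 188 CPM in H3.3S28A. In H3.1S28A they summed to 68.4 CPM in replicate 1 and 11.1 CPM in replicate 2, so most of that signal came from replicate 1. SEP3 had 612 counts in the first and 121 in the second. All 7 were called higher in H3.3S28A and 4 of 5 tested in H3.1S28A, against 28.8% and 8.23% of all genes. With at most 6 counts in an H3.3 library, the 7 passed the count filter through H3.3S28A. Their calls there thus add nothing to the counts. In the H3.1 pair SEP1, SEP2 and PI had at most 9 counts in an H3.1 library and passed the filter through H3.1S28A. The calls of SEP1 and SEP2 in H3.1S28A thus add nothing either, and the 4 of 5 is not read against the 8.23%. DESeq2 called 3 of the list in H3.1S28A. The part of root and floral tissue in the results below was not tested. AP3, a defining petal and stamen gene, had 0 counts in both H3.3 libraries and 206 and 133 in H3.3S28A. In whole plants a lower level can reflect fewer cells of a type or less RNA per cell, and these cannot be told apart. The 8 listed histone H3 genes summed to 1330 to 1357 CPM in H3.3 and 1841 to 1873 CPM in H3.3S28A, and do not check the genotypes, since reads of an introduced copy may fall on the same genes. H3.3S28A replicate 2 stood apart in its chloroplast genes, which took 0.858% of its counts against 0.0520% to 0.143% elsewhere, and values without it are given below.

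In H3.3S28A plants REF6, ELF6 and JMJ13 fell and JMJ30 rose against H3.3 plants, while JMJ32 was not called. This comparison sets plants labelled with the exchange in the replication-independent histone beside their controls. Much of the transcriptome differed: 58.4% of the 19729 genes tested were called, 28.8% higher and 29.7% lower, so that 3 of 5 members lower and 1 higher has to be read against a background in which most genes were called. Over all genes tested the median log2 fold change was 0.01, and over the 5 members it was −1.18.

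REF6 had 433 and 444 counts in the H3.3 libraries against 75 and 57 in the H3.3S28A ones. Its level was 22.5 ± 0.75 CPM in H3.3 and 4.14 ± 0.43 CPM in H3.3S28A (mean ± SD, n = 2 in each). The H3.3S28A libraries lay far below the H3.3 libraries and close to each other. The log2 fold change was −2.40 (SE 0.15, adjusted p = 4.5e-07), which is 5.29-fold lower with a 95% interval of 4.19 to 6.68. REF6 stood at rank 150 from the lowest among the 19729 fold changes.

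ELF6, the closest relative of REF6 among the 5, had 383 and 457 counts in the H3.3 libraries against 88 and 59 in the H3.3S28A ones. Its level went from 21.6 ± 3.0 to 4.55 ± 0.07 CPM (n = 2 in each), and the groups did not overlap. The log2 fold change was −2.20 (SE 0.16, adjusted p = 1.2e-06), or 4.58-fold lower with an interval of 3.57 to 5.88, at rank 257 from the lowest. JMJ13 had 128 and 173 counts in the H3.3 libraries against 66 and 41 in the H3.3S28A ones, or 7.73 ± 1.75 and 3.28 ± 0.13 CPM. Both H3.3S28A libraries were below both H3.3 libraries, and the fall was 2.27-fold (interval 1.56 to 3.28, log2 fold change −1.18, SE 0.24, adjusted p = 0.0016).

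JMJ30 moved the other way. It had 104 and 96 counts in the H3.3 libraries against 262 and 139 in the H3.3S28A ones, or 5.13 ± 0.21 and 12.1 ± 1.8 CPM, and the groups did not overlap. JMJ30 rose 2.45-fold (interval 1.84 to 3.27, log2 fold change 1.30, SE 0.19, adjusted p = 1.5e-04). JMJ32 had 48 and 47 counts in the H3.3 libraries against 46 and 41 in the H3.3S28A ones, or 2.44 ± 0.0019 and 2.77 ± 0.59 CPM. The H3.3S28A libraries fell on either side of the H3.3 pair, and the log2 fold change of JMJ32 was 0.22 with a 95% interval of −0.49 to 0.93 (adjusted p = 0.577). At these counts a change in JMJ32 of up to 1.90-fold upward lies inside the interval.

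**Figure D1:**
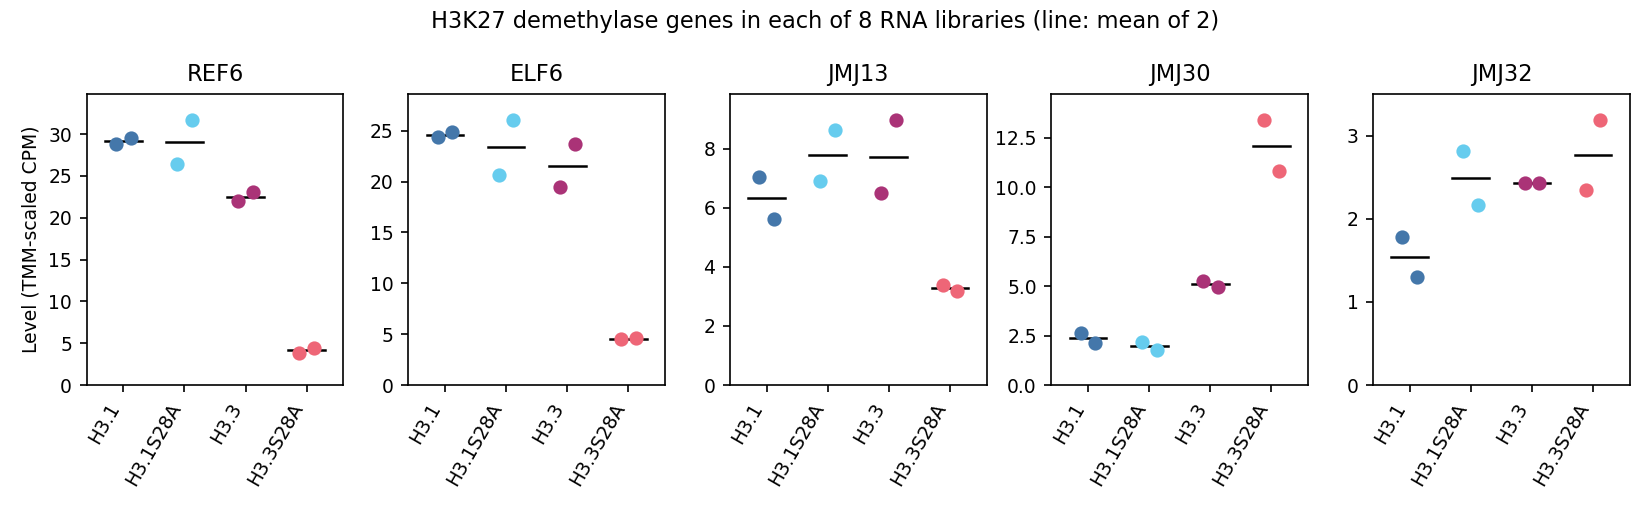
Level of each H3K27 demethylase gene in the 8 RNA libraries, in TMM-scaled CPM on a linear axis that starts at 0, by genotype, with a point per library and a line at the mean of 2. REF6 and ELF6 lie between 19.4 and 31.7 CPM in 3 genotypes and between 3.84 and 4.59 CPM in H3.3S28A, while JMJ30 is highest there, at 10.8 and 13.4 CPM.

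Without H3.3S28A replicate 2 the same 4 genes were called, with log2 fold changes of −2.50 for REF6, −2.21 for ELF6, −1.14 for JMJ13 and 1.43 for JMJ30. Leaving out each of the other libraries in turn kept the same 4 calls, with adjusted p up to 0.0308 (JMJ13 without H3.3 replicate 2). DESeq2 also called these 4 genes.

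Long genes fell in general in H3.3S28A, and REF6, ELF6 and JMJ13 are long genes. Across the 19525 tested genes with a span in the RefSeq table, fold change and span had a Spearman rho of −0.524, a description across genes, which are not independent replicates. The median log2 fold change was 0.70 for genes of under 1 kb, 0.00489 for those of 2 to 3 kb and −0.87 for the 705 genes of 5 to 6 kb, of which 71.6% were called lower. REF6, ELF6 and JMJ13 all span 5 to 6 kb, and JMJ30 and JMJ32 span 2 to 3 kb. Within the 5 to 6 kb class, 12 of 705 genes had a lower fold change than REF6, 28 a lower one than ELF6 and 244 a lower one than JMJ13. JMJ30 had a higher fold change than 5927 of the 6254 genes in its own class, and JMJ32 than 3988 of them.

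With the trend of each library on gene span removed, 49.9% of genes were called, 26.8% higher and 23.2% lower, and 2 members were lower and 1 higher. REF6 was then at a log2 fold change of −1.51 (SE 0.16, adjusted p = 2.9e-05), or 2.84-fold lower instead of 5.29-fold. ELF6 was at −1.24 (SE 0.16, adjusted p = 1.2e-04), or 2.36-fold lower. JMJ13 lost its call, at −0.39 with an interval of −0.92 to 0.14 (adjusted p = 0.198). JMJ30 was still higher, at 1.44 (adjusted p = 1.1e-04). What produced the trend was not tested. Replicate 1 against replicate 2 gave rho between fold change and span of 0.172 in H3.3S28A, −0.0370 in H3.3, −0.134 in H3.1 and −0.180 in H3.1S28A. In H3.1S28A against H3.1 the rho was −0.218. It comes from a fit of 2 libraries against 2, so it is not directly comparable with those between single libraries. The median log2 fold change there was 0.25 under 1 kb, −0.12 at 6 to 8 kb and −0.07 over 8 kb.

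**Figure D2:**
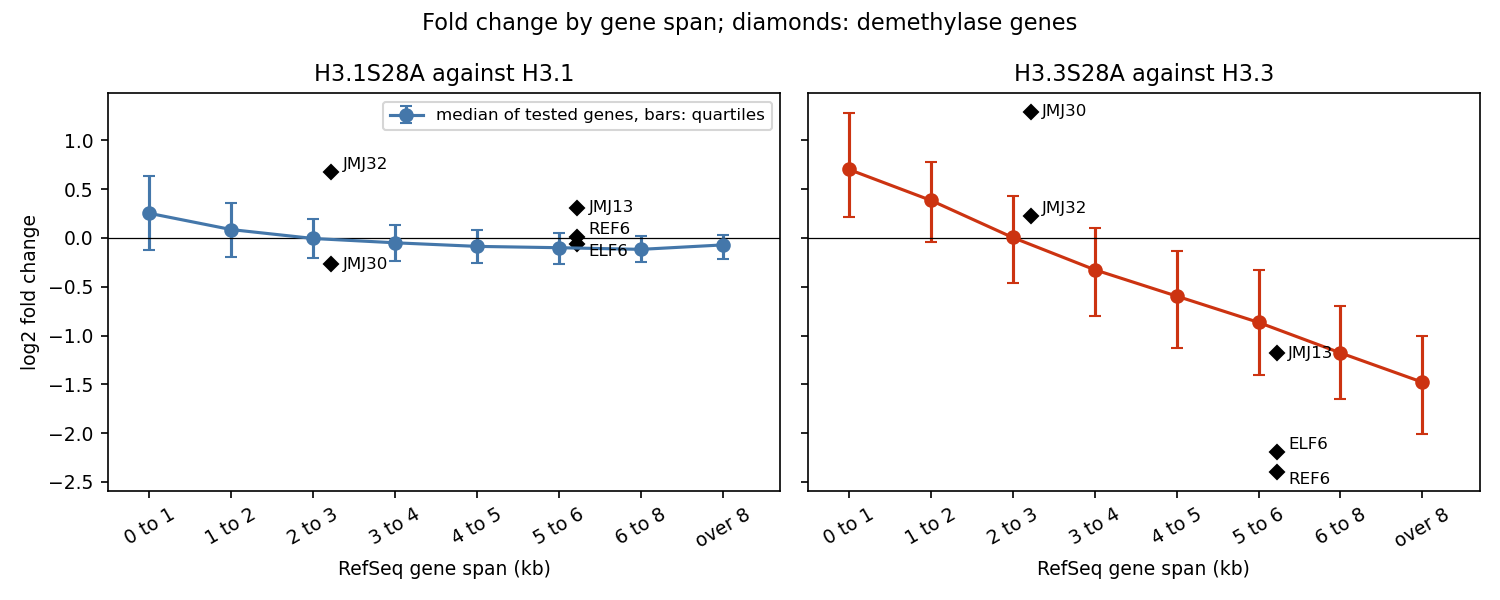
Median log2 fold change of all tested genes by RefSeq gene span in kb (bars from lower to upper quartile), for H3.1S28A against H3.1 on the left and H3.3S28A against H3.3 on the right, with the 5 demethylase genes as diamonds. On the right the medians go from 0.70 to −1.48 as span grows, REF6 and ELF6 lie below the quartiles of their class, JMJ13 inside them and JMJ30 above them.

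In H3.1S28A plants none of the 5 genes was called against H3.1 plants by edgeR, the number at an unadjusted p under 0.05 was 0, as was the number that DESeq2 called. Of the 18974 genes tested in this comparison, which does the same for the replication-coupled histone, 13.5% were called, 8.23% higher and 5.26% lower. The median log2 fold change was 0.01 over the members and −0.01 over all genes tested.

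REF6 had 630 and 659 counts in the H3.1 libraries against 375 and 744 in the H3.1S28A ones, or 29.1 ± 0.50 and 29.1 ± 3.7 CPM (n = 2 in each). The H3.1S28A libraries lay on either side of the H3.1 pair, at 26.5 and 31.7 CPM. The log2 fold change of REF6 was 0.0061 with a 95% interval of −0.25 to 0.26 (adjusted p = 0.982). ELF6 had 534 and 555 counts in the H3.1 libraries against 293 and 612 in the H3.1S28A ones, or 24.6 ± 0.31 and 23.4 ± 3.8 CPM, and the groups overlapped (log2 fold change −0.06, interval −0.34 to 0.21, adjusted p = 0.789).

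The 3 less abundant counts were less precise. JMJ13 had 154 and 126 counts in the H3.1 libraries against 98 and 203 in the H3.1S28A ones, or 6.34 ± 0.99 and 7.78 ± 1.22 CPM (log2 fold change 0.31, interval −0.11 to 0.73, adjusted p = 0.322). JMJ30 had 58 and 47 counts in the H3.1 libraries against 31 and 42 in the H3.1S28A ones, or 2.38 ± 0.39 and 1.99 ± 0.28 CPM (−0.27, interval −0.94 to 0.40, adjusted p = 0.611). In both genes the libraries of the 2 genotypes overlapped. JMJ32 had 39 and 29 counts in the H3.1 libraries against 40 and 51 in the H3.1S28A ones, or 1.54 ± 0.34 and 2.50 ± 0.46 CPM. Both H3.1S28A libraries were above both H3.1 libraries, but the difference was not called (1.60-fold higher, interval from 1.03-fold lower to 2.64-fold higher, adjusted p = 0.196). With the span trend removed none of the 5 was called either, against 11.9% of all genes, 6.68% higher and 5.24% lower.

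**Figure D3:**
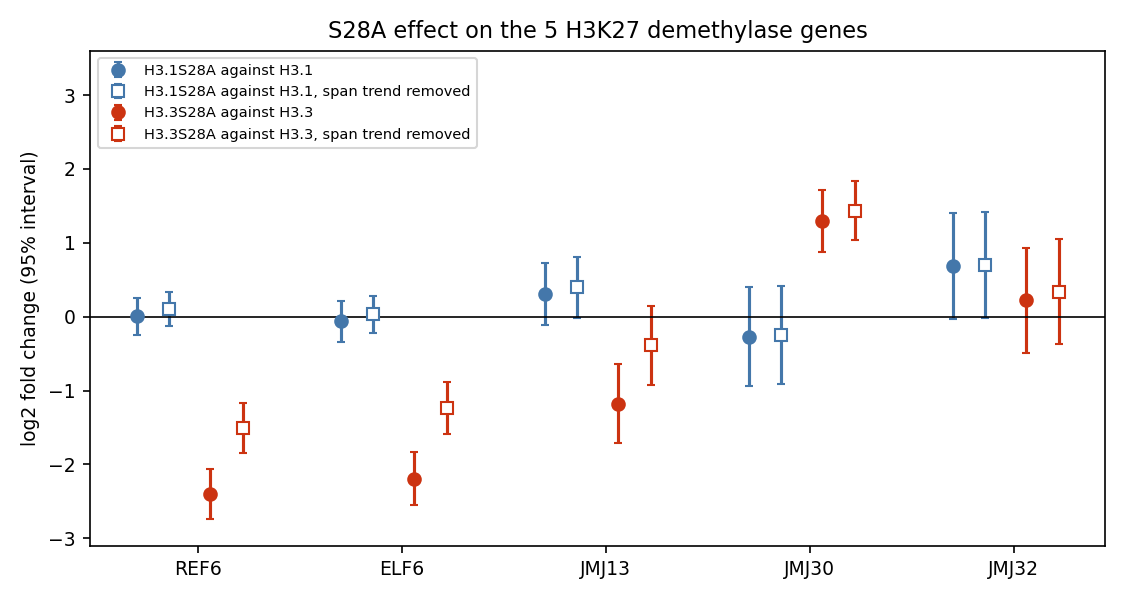
log2 fold change with its 95% interval for each demethylase gene in H3.1S28A against H3.1 and in H3.3S28A against H3.3, as fitted (filled circles) and with the span trend removed (open squares). The H3.1S28A intervals all include 0, and those of REF6, ELF6 and JMJ30 in H3.3S28A lie clear of it in both fits, while that of JMJ13 reaches 0.14 once the trend is removed.

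Whether the difference between S28A and control plants differed from H3.1 to H3.3 was tested on all 8 libraries, so that a gene's offset from one table to the other drops out. Of 20052 genes tested, 39.0% were called, 24.4% with a more positive log2 fold change in H3.1S28A and 14.6% with a more positive one in H3.3S28A. Of the 5 members 3 were of the first kind and 1 of the second. Taken as the log2 fold change in H3.1S28A less that in H3.3S28A, the difference was 2.44 for REF6 (SE 0.19, adjusted p = 1.8e-06), 2.16 for ELF6 (SE 0.21, adjusted p = 1.0e-05) and 1.52 for JMJ13 (SE 0.32, adjusted p = 0.0022) on the log2 scale. For JMJ30 it was −1.54 (SE 0.33, adjusted p = 0.0024), and for JMJ32 it was 0.49 with an interval of −0.49 to 1.48 (adjusted p = 0.420). With the span trend removed 33.6% of genes were called, 16.9% and 16.7% in the 2 directions. REF6, ELF6 and JMJ30 were then at 1.60, 1.27 and −1.69 (adjusted p = 4.1e-05, 4.2e-04 and 0.0017), and JMJ13 was at 0.78 and not called (adjusted p = 0.0707).

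The order of levels over the 4 genotypes is given without a test, since the tables are compared side by side. REF6 was lowest in H3.3S28A, then in H3.3, and the libraries of H3.1S28A and H3.1 overlapped at the top. ELF6 and JMJ13 were lowest in H3.3S28A, and the libraries of neighbours among the other 3 genotypes overlapped. JMJ30 was lowest in H3.1S28A and H3.1, which overlapped, with H3.3 above them and H3.3S28A highest. JMJ32 was lowest in H3.1, and neighbours among the other 3 overlapped. Levels of different genes are not compared with each other, because transcript lengths were not used.

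Ratios of counts within a library do not depend on how libraries are scaled. REF6 counts per ELF6 count ranged from 0.852 to 1.28 over the 8 libraries. JMJ30 counts per REF6 count were 0.240 and 0.216 in H3.3 against 3.49 and 2.44 in H3.3S28A. In the H3.1 and H3.1S28A libraries they were 0.0565 to 0.0921. REF6 spans 5 to 6 kb and JMJ30 2 to 3 kb, so this ratio is not free of the trend on gene span. JMJ30 counts per JMJ32 count, both genes of 2 to 3 kb, were 2.17 and 2.04 in H3.3 against 5.70 and 3.39 in H3.3S28A. Within the H3.1 table the same ratio was 1.49 and 1.62 in H3.1 against 0.775 and 0.824 in H3.1S28A. The sum of the 5 genes was 55.6 and 63.1 CPM in H3.3 against 27.5 and 26.2 CPM in H3.3S28A, and 59.0 to 70.3 CPM in the H3.1 and H3.1S28A libraries. With 2 libraries against 2, an exact two-sided permutation test cannot go below p = 0.333, so no test of these ratios was made.

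Most genes listed as other histone demethylases also fell in H3.3S28A, and whether each product is active was not checked. Of 20 such genes, 19 were tested, 15 were called lower, against 29.7% of all genes, and none higher (0 at an unadjusted p under 0.05 in that direction, and 14 of the 19 called by DESeq2). The list median was −1.27. LDL3, of the LSD1 class, fell from 24.5 ± 2.0 CPM to 4.44 ± 1.54 CPM, a log2 fold change of −2.38 (adjusted p = 2.6e-06). JMJ14, a demethylase of H3 lysine 4, fell from 37.1 ± 0.91 CPM to 12.7 ± 0.60 CPM (−1.49, adjusted p = 1.4e-06). PKDM7D (AT1G08620) was at −2.10 and AT1G09060, listed as JMJ24, at −1.76 (adjusted p = 5.3e-07 and 5.8e-07). With the span trend removed 11 of the 15 were still called lower, against 23.2% of all genes, and the list median was −0.62. In that fit LDL3, JMJ14, PKDM7D and AT1G09060 were at −1.05, −0.64, −0.91 and −1.04. In H3.1S28A, where 5.26% of all genes were called lower, JMJ14 alone was called, at −0.37 (adjusted p = 0.0332). DESeq2 called 0 of the 19 there, and with the span trend removed it was at −0.28 (adjusted p = 0.0866). JMJ15, which was not tested, had at most 6 counts in a library.

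The genes for the opposing enzymes fell too in H3.3S28A. CLF and SWN, the PRC2 methyltransferases of seedlings, fell from 23.6 ± 2.2 to 7.27 ± 0.49 CPM and from 26.1 ± 0.55 to 8.40 ± 0.99 CPM (log2 fold changes −1.64 and −1.57, adjusted p = 3.4e-06 and 2.9e-06). Of 8 PRC2 and reader genes tested among 10, 5 were called lower and none higher (0 at an unadjusted p under 0.05 in that direction, 5 called by DESeq2), against 29.7% of all genes lower. The list median was −0.60, and it was −0.05 with the span trend removed. In that fit 2 were lower, CLF at −0.79 and SWN at −0.71. EMF2 was the 1 called higher, and had turned from −0.67 to 0.32 (adjusted p = 0.0262). Of all genes 23.2% were lower and 26.8% higher in the same fit. EMF1, which maintains Polycomb silencing, was called lower at −1.01 (adjusted p = 0.0045) and was at −0.08 with the span trend removed. In H3.1S28A none of the 8 was called, against 13.5% of all genes (3 at an unadjusted p under 0.05, and 0 called by DESeq2). Summed counts of REF6, ELF6 and JMJ13 per count of CLF and SWN were 1.00 and 1.08 in H3.3 against 0.700 and 0.835 in H3.3S28A. With JMJ30 and JMJ32 added they were 1.16 and 1.22 in H3.3 against 1.64 and 1.79 in H3.3S28A. In the H3.1 table the ratio for REF6, ELF6 and JMJ13 was 1.00 and 1.07 in H3.1 against 1.17 and 1.26 in H3.1S28A, where none of the genes in it was called. That for all 5 genes was 1.08 and 1.13 in H3.1 against 1.28 and 1.34 in H3.1S28A. Gene span was not matched in these ratios, and they were not tested.

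**Figure D4:**
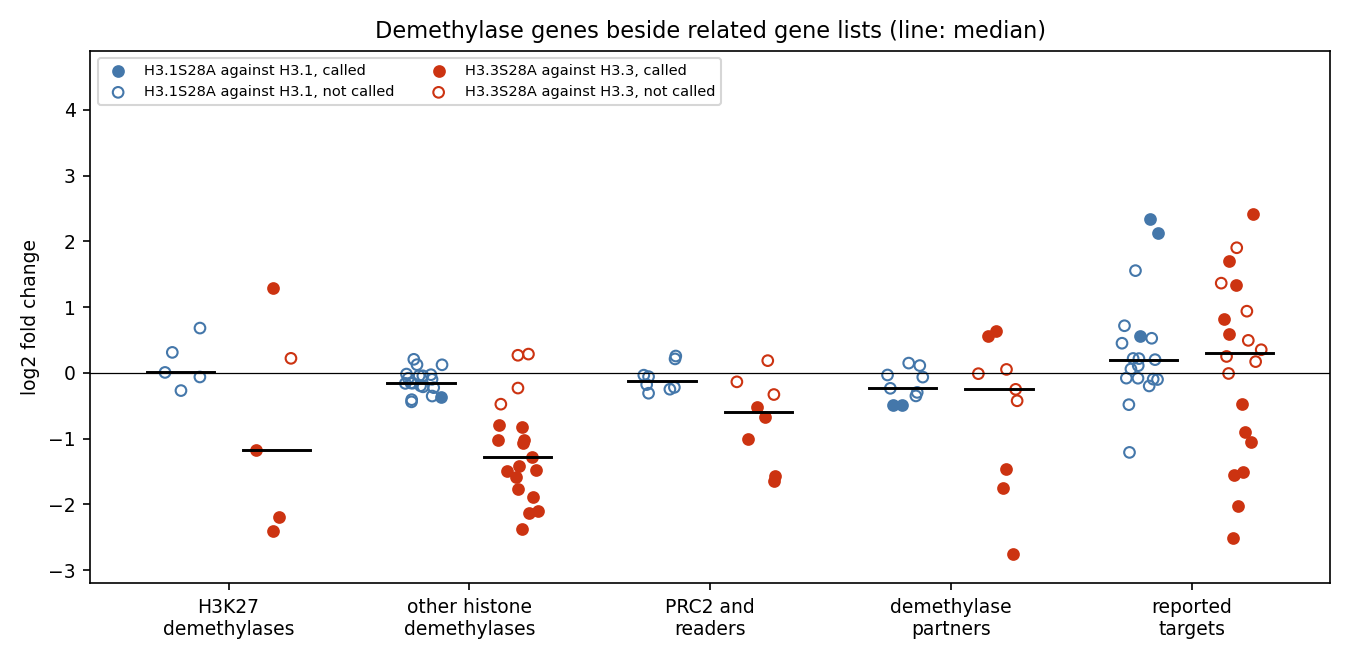
log2 fold change of every tested gene of 5 lists in H3.1S28A against H3.1 and in H3.3S28A against H3.3 (filled, called; open, not called; line, median of the list). In H3.3S28A the median of the other histone demethylases is −1.27, near the −1.18 of the H3K27 demethylases, and JMJ30 is the single filled point above 0 in these 2 lists.

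Of 9 genes for proteins that work with the demethylases, 2 were called higher and 3 lower in H3.3S28A, with a median of −0.25. These counts too lie near the background of 28.8% higher and 29.7% lower over all genes. BRM, the chromatin remodeller that REF6 recruits, fell from 63.8 ± 3.65 CPM to 9.11 ± 0.0036 CPM. Its log2 fold change was −2.76 (adjusted p = 3.9e-08), or −1.28 with the span trend removed (adjusted p = 7.4e-06). The auxin response factor gene ARF7, whose product binds JMJ30, fell (−1.46, adjusted p = 3.95e-05), as did ARF19 (−1.76, adjusted p = 2.5e-04). NF-YC9, for a subunit of the NF-Y factors that act with REF6 at SOC1, rose (0.63, adjusted p = 1.8e-04), and with NF-YC4 (0.55) made up the 2 genes called higher. NF-YC4 was at 0.22 and not called with the span trend removed (adjusted p = 0.101). In H3.1S28A, ARF7 and ARF19 were called lower at −0.48 and −0.49 (adjusted p = 0.0111 and 0.0236) and none was called higher (0 at an unadjusted p under 0.05 in that direction, and DESeq2 called 1 gene of the list). With the span trend removed ARF19 was not called there (adjusted p = 0.0571), and NF-YC9 was called lower at −0.36 (adjusted p = 0.0376). Over all genes tested in H3.1S28A, 5.26% were called lower, or 5.24% with the span trend removed.

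Of 23 genes reported as targets of these demethylases, 20 were tested in H3.3S28A, where 5 were called higher and 7 lower, with a median of 0.30. Over all genes 28.8% were higher and 29.7% lower, so these counts lie near the background. With the span trend removed 7 targets were higher and 4 lower, with a median of 0.56, beside 26.8% and 23.2% of all genes. FLC had 34 and 23 counts in the H3.3 libraries against 66 and 49 in the H3.3S28A ones, a rise from 1.46 ± 0.38 CPM to 3.59 ± 0.31 CPM, with a log2 fold change of 1.34 (SE 0.34, adjusted p = 0.0057). SOC1, a flowering activator, rose from 36.8 ± 2.6 CPM to 115 ± 10.3 CPM (1.70, adjusted p = 1.9e-07), and FT, the mobile flowering signal, from 1.18 ± 0.13 CPM to 6.14 ± 0.23 CPM (2.42, adjusted p = 3.5e-05). EIN2 of ethylene signalling fell (−1.56, adjusted p = 4.75e-07), as did TCH4, a cell wall enzyme gene (−1.51, adjusted p = 1.4e-05). FLC was at 2.34 with the span trend removed, SOC1 at 2.11 and FT at 2.51, while EIN2 was at −0.58, and all 4 were still called. In H3.1S28A, 3 of 19 targets tested were called higher, TCH4 at 2.34 (adjusted p = 5.9e-07), FT at 2.12 (0.0203) and NYE1 of chlorophyll breakdown at 0.55 (0.0456), and none lower (1 at an unadjusted p under 0.05 in that direction, with 2 genes of the list called by DESeq2). Over all genes tested in H3.1S28A, 8.23% were called higher and 5.26% lower. FT had 7 and 11 counts in the H3.1 libraries against 37 and 26 in the H3.1S28A ones. Its H3.1 counts alone would not have kept it among the genes tested, and its higher H3.1S28A counts did. The call of FT there adds nothing to these counts, and the 3 of 19 is not read against the 8.23%. NYE1 was not called with the span trend removed (adjusted p = 0.0567). FLC and SOC1 were not called in H3.1S28A, at −0.20 and 0.53 (adjusted p = 0.589 and 0.0660).

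Of 11 clock genes tested in H3.3S28A, 5 were called higher and 4 lower, against 28.8% and 29.7% of all genes. The morning genes CCA1 and LHY fell, from 52.5 ± 2.0 to 8.73 ± 3.73 CPM and from 33.3 ± 1.15 to 6.08 ± 0.87 CPM (log2 fold changes −2.58 and −2.42, adjusted p = 2.1e-06 and 2.3e-07). The day genes PRR9 and PRR7 fell as well, at −1.96 and −1.64. Among the others 5 rose: PRR5 at 1.46, TOC1 at 1.54, LUX at 1.97, FKF1 at 3.20 and ELF4 at 3.87. ELF4 went from 5.15 ± 0.10 CPM to 72.9 ± 16.5 CPM. GI was at −0.20 and ELF3 went from 23.2 ± 2.2 CPM to 25.4 ± 0.41 CPM, and neither was called. With the span trend removed 7 were higher and 4 lower, against 26.8% and 23.2% of all genes, and GI was at 0.79 (adjusted p = 2.9e-04). In H3.1S28A, where JMJ30 was at −0.27 and not called, PRR5 (−0.99), TOC1 (−0.86), FKF1 (−1.07) and GI (−0.48) fell and none rose (1 at an unadjusted p under 0.05 in that direction, and 4 genes of the list called by DESeq2). Of all genes tested in H3.1S28A, 8.23% were called higher and 5.26% lower. The part of the clock in the JMJ30 result was not tested.

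**Figure D5:**
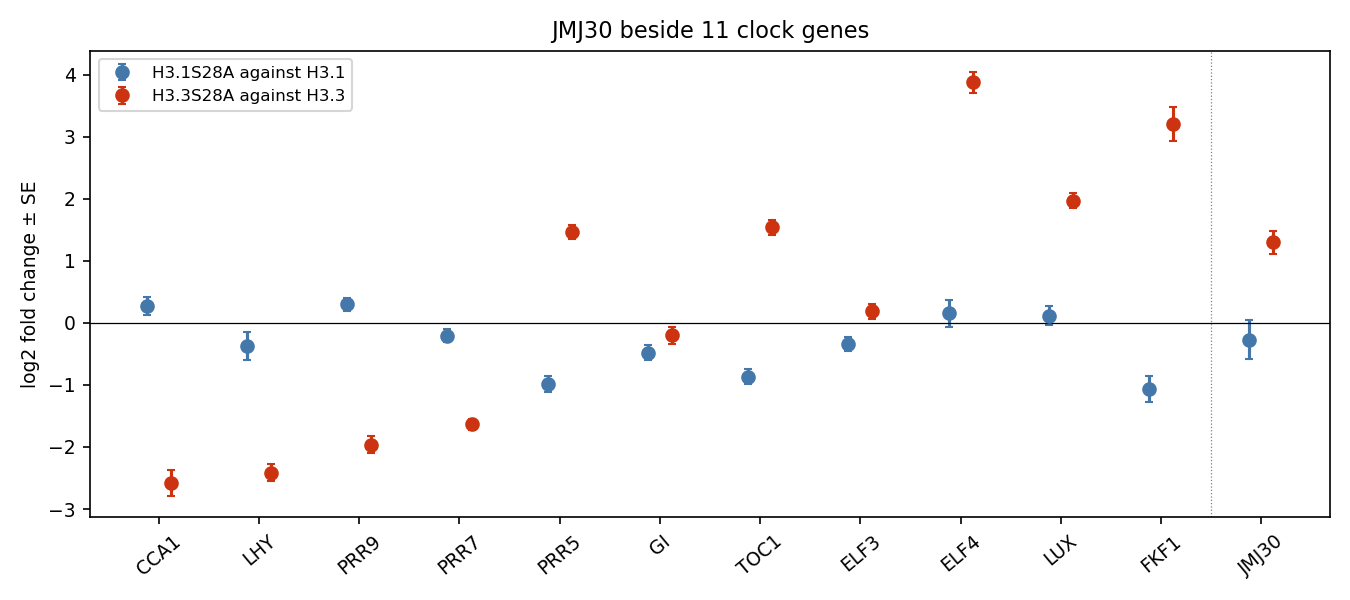
log2 fold change with its SE for 11 clock genes and JMJ30 in H3.1S28A against H3.1 and in H3.3S28A against H3.3. In H3.3S28A, CCA1, LHY, PRR9 and PRR7 lie between −2.58 and −1.64, and JMJ30, at 1.30, lies on the same side as PRR5, TOC1, LUX, FKF1 and ELF4.

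The genes on both sides of REF6 and JMJ30 were not called in H3.3S28A. The neighbours of REF6, AT3G48425 and AT3G48440, had log2 fold changes of −0.25 and 0.02 and were not called (adjusted p = 0.185 and 0.913). Those of JMJ30, AT3G20800 and AT3G20820, were at 0.0015 and 0.03 (adjusted p = 0.995 and 0.796), and PAL3, the neighbour of ELF6 that was tested, was at −0.18 (0.254). AT5G46915, after JMJ13, was at 0.25 (0.601). Reads of overlapping genes may be split or shared, and the strand setting of the counting is not given in the sources used here. ELF6 shares 195 bases with AT5G04238, which had at most 66 counts in a library, was not tested in H3.3S28A and was called higher in H3.1S28A at 1.64 (adjusted p = 0.0374). The difference between the histone forms in AT5G04238 was 6.63 (adjusted p = 0.0139). Its counts went down to 0 and it was not tested in H3.3S28A, so this value is not read beside ELF6. JMJ13 overlaps a lncRNA gene that was not used here, and JMJ32 shares 13 and 32 bases with UMAMIT3 and RUS1. UMAMIT3 was called lower in H3.1S28A at −1.57 (adjusted p = 0.0418), and RUS1 was at 0.19 and not called (0.466). REF6 and JMJ30 overlap no gene in the RefSeq table.

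The genes whose log2 CPM was most like that of each member over the 8 libraries were found among named genes that passed the count filter. They were MOR1, ECIP1 and DCL1 for REF6 (Pearson r of at least 0.999), AGD2, HB-7 and NPG1 for ELF6 (at least 0.998), and VRN5, SYP111 and SFH3 for JMJ13 (0.965 to 0.984). For JMJ30 they were HCF153, TRX2 and SCPL51 (0.990 to 0.993), and for JMJ32 MYB20, CRK18 and LGO (0.956 to 0.973). These values describe 8 libraries that fall into 4 genotypes, and the best 3 of 8737 or 8738 genes compared were taken.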

How the data were processed

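RNA of 4 genotypes was sequenced with 2 libraries each. The authors deposited raw counts per gene in 2 tables, one per histone form. HISAT2, Subread, DESeq2 and the build TAIR10 are named per the submitters' processing notes, with versions, annotation, strand setting and multi-mapping not given in the sources used here. Columns were matched to samples by name, and the columns H3_11 and H3_12 were read as H3.1 replicates 1 and 2. The 30 chromatin libraries are not analysed here.

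Tests were made within each table (R 4.3.3, edgeR 4.0.16: TMM, filterByExpr, glmQLFit, glmQLFTest), with Benjamini-Hochberg adjustment over all genes and a threshold of 0.05. SE is the absolute log2 fold change over the root of F. The scripts were tested on simulated data. Gene symbols and spans came from the RefSeq table of TAIR10.1, which held 26719 of 27416 genes. It gave the symbol used for 87 of the 108 listed genes. The names JMJ13 and JMJ24 and those of the histone H3 genes are from general knowledge. The span trend was a lowess per library, removed as an offset. Replicates of a genotype were not copies of each other, their counts giving a chi-square of 4.11 to 18.6 for each degree of freedom.

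The 5 genes, the 11 lists and the tests were chosen with earlier results of these data known. Named were the 5 members, FLC, SOC1 and FT, up to 4 called genes per list by smallest p, and the 3 genes most like each member; others were named after their values were seen. Alternatives were DESeq2 1.42.0, RLE scaling, no count filter, a replicate block, the span trend, no organelle genes, all 8 libraries in 1 fit, and leaving out each library. A planned scaling of levels by coding length was not made, for want of protein lengths. Intervals for fold changes are 95% intervals of the fit, and 2 libraries per group limit their precision.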

Additional observations from a re-analysis of the deposited data

Results flagged for a closer look

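The test of the difference itself, on all 8 libraries, called 4 of the 5 genes. For these the difference between S28A and control plants was not the same in both histone forms. Of all 20052 genes tested, 39.0% were called in this test. With the span trend removed 33.6% were called, and 3 of the 5 genes. For REF6 the log2 fold change in H3.1S28A minus that in H3.3S28A was 2.44 (adjusted p = 1.8e-06), with log2 fold changes of 0.0061 and −2.40 in the separate pairs. ELF6 was at 2.16 (adjusted p = 1.0e-05), with −0.06 and −2.20. JMJ13 was at 1.52 (adjusted p = 0.0022), with 0.31 and −1.18, and lost this call with the span trend removed. JMJ30 was at −1.54 (adjusted p = 0.0024), with −0.27 and 1.30. For each of these 4 genes both H3.3S28A libraries lay on the same side of both H3.3 libraries. This separation is not read as a result about these genes. How many of all genes show the same was not counted, and 58.4% of them were called in H3.3S28A.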

How the results depend on the processing

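Of the 5 genes in 3 comparisons, REF6, ELF6 and JMJ30 kept direction and call in H3.3S28A under all 13 alternatives and in the test of the difference under all 16, with log2 fold changes of −2.50 to −2.29, −2.37 to −2.07 and 1.12 to 1.43 in H3.3S28A when single libraries were left out. JMJ13 lost its H3.3S28A call with the span trend removed (−0.39), with the span trend and a replicate block (−0.36) and, chosen after seeing the data, with the span trend removed and without H3.3S28A replicate 2 (−0.40). Its difference between the forms was then at 0.78, 0.76 and 0.80, not called. In H3.1S28A no member was called under any of the 12 alternatives. REF6 turned sign there with the replicate block (−0.0017) and ELF6 with the span trend removed (0.035) or with that and the block (0.028), all within their errors. Leaving out single libraries gave REF6 −0.13 to 0.12 and ELF6 −0.24 to 0.083 in H3.1S28A, and JMJ32 −0.0013 to 0.44 in H3.3S28A. It also gave JMJ13 0.13 to 0.48, JMJ30 −0.43 to −0.089 and JMJ32 0.47 to 0.93 in H3.1S28A, and a difference of 0.24 to 0.74 for JMJ32, none of them called. Counts of all genes called in H3.1S28A ran from 1152 (without H3.1 replicate 2) and 1324 (without H3.1 replicate 1) to 3480, against 2560, and DESeq2 called 578 lower against 998. For the difference, 4896 genes were higher and 2933 lower as fitted, 3385 and 3356 with the span trend removed, and 2951 higher without H3.3S28A replicate 2 as well. The replicate number did not pair the libraries (correlation of deviations −0.0030 and 0.02 across genes), and the block alone changed no call of a member. The counts of JMJ32, 29 to 51, limit what can be seen for that gene.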
